A study of Mus musculus with 8 samples.

Results

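A total of 1886 splice junctions of mouse liver RNA were read in all 8 libraries of a circadian time series although no intron of the transcript models that the authors quantified has the same coordinates. They were chosen by their measured reads, with at least 1 read in every library, from 231440 distinct junctions in the series, of which 84493 are absent from the models. An annotated junction is one that equals an intron of the models, and 75686 of these were read in all 8 libraries. The 1886 unannotated junctions were sorted by how many of their ends coincide with an end of an annotated intron. Both ends did so in 276, 1 end in 1074 and no end in 536. All libraries came from livers of wild-type (WT) C57/BL6 mice, held for a week on a schedule of 12 h light and 12 h dark and then moved to complete darkness for a day. Livers were taken every 6 h on the circadian time (CT) scale, from CT23 through CT29, CT35, CT41, CT47, CT53 and CT59 to CT65. RNA of 3 animals was pooled for each time and selected for poly(A) tails. There is 1 library per time and no replicate, and the labels give neither sex nor age.

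A splice junction is the mark that the removal of an intron leaves in a read, and its ends are the donor (5′) and acceptor (3′) splice sites. Nearly all introns begin with GT, a few with GC, and end with AG. Alternative splicing skips an exon or uses a donor or acceptor other than the usual one. A change of exon length by a multiple of 3 bases keeps the reading frame downstream. In liver, alternative products are known for transcription factors, secreted proteins and drug-metabolising enzymes, several of which belong to families of near-identical neighbouring genes.

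The junctions that follow show the kinds of event in coding sequence that carry most of the account, and they were chosen after their values had been seen. Each sequence was read from a GENCODE M21 transcript (a mouse annotation of the later build GRCm38) that holds the same exons by length, with 15 exon bases on both sides in lower case. Capitals mark the bases that the unannotated junction leaves out of the messenger. They begin with the new donor in Hnf4a, Mup3 and Alb, end with the new acceptor in Mlxipl, Col18a1, Pcbp2, Apoa2 and Hpd, and are a whole skipped exon in Itih4 and Mia2.
Hnf4a: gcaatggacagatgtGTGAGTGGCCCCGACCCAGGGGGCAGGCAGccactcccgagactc
Mup3: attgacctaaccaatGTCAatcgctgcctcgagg
Alb: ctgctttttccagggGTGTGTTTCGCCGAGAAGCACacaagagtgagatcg
Mlxipl: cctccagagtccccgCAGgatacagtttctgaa
Col18a1: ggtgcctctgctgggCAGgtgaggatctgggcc
Pcbp2: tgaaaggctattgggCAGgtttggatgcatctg
Apoa2: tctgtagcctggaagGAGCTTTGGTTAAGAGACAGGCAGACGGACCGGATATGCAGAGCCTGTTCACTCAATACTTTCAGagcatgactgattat
Hpd: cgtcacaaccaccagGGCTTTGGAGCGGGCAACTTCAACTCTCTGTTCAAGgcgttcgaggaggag
Itih4: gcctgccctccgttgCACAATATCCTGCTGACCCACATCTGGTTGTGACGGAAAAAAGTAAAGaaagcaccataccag
Mia2: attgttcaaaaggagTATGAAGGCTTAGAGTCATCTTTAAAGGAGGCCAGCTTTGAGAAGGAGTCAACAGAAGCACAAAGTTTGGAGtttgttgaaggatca
The 3 acceptors of Mlxipl, Col18a1 and Pcbp2 move by a single CAG, so that 1 acceptor follows the other directly. The new donors of Hnf4a, Mup3 and Alb all begin with GT.

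The libraries held 5270743 to 6227130 junction reads, except CT35 with 14749911. Reads on any unannotated junction made up 0.769% of junction reads in CT23 (95% exact Clopper-Pearson interval 0.761 to 0.776%), 0.729% in CT29, 0.582% in CT35 (0.578 to 0.586%), 0.655% in CT41, 0.699% in CT47, 0.694% in CT53, 0.710% in CT59 and 0.710% in CT65. Intervals of this kind cover counting error only. Most unannotated junctions were rare: 58374 of 84493 (69.1%) appeared in 1 library, and 1234 in 7. CT35, the deepest library, held 14910 of those that appeared in 1 library, and each other library held 5828 to 6771. The 1886 that appeared in all 8, 2.23% of the 84493, carried 49.5% of the reads on unannotated junctions and 0.334% of all junction reads. Among annotated junctions read at all, 51.5% appeared in all 8 libraries. Hepatocyte markers had values above 0 in every library, with sums of 44102 to 72917 in the authors' length- and depth-scaled units, against 47.3 to 78.8 for macrophage, 47.9 to 65.4 for endothelial, 54.2 to 75.4 for stellate 3.42 to 10.8 for cholangiocyte, 0.780 to 2.61 for lymphocyte and 51.4 to 101.3 for red cell markers. The part of other cell types in single junctions was not tested, and in whole liver fewer cells of a type and less RNA per cell cannot be told apart.

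An unannotated junction seen in all libraries had a median of 45 reads over the 8 libraries (quartiles 26.2 and 86.8, highest 2348), against 102 reads for annotated junctions seen in all libraries (quartiles 50 and 254). The lowest library held a single read for 856 of the 1886 (45.4%), and 104 had 20 or more reads in every library. Intron lengths differed between the end classes, with medians of 4835 bases where both ends were annotated, 1150 where 1 was and 767 where none was, against 1145 bases for annotated junctions. Introns over 100 kb were 39 of the 1886 (2.07%) and 116 of the 75686 annotated ones (0.153%). Introns under 70 bases were 17 of the 1886 (0.901%), 14 of them with no annotated end, and 0.0925% of the annotated ones. Whether such short gaps are spliced introns was not tested.

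**Figure D1:**
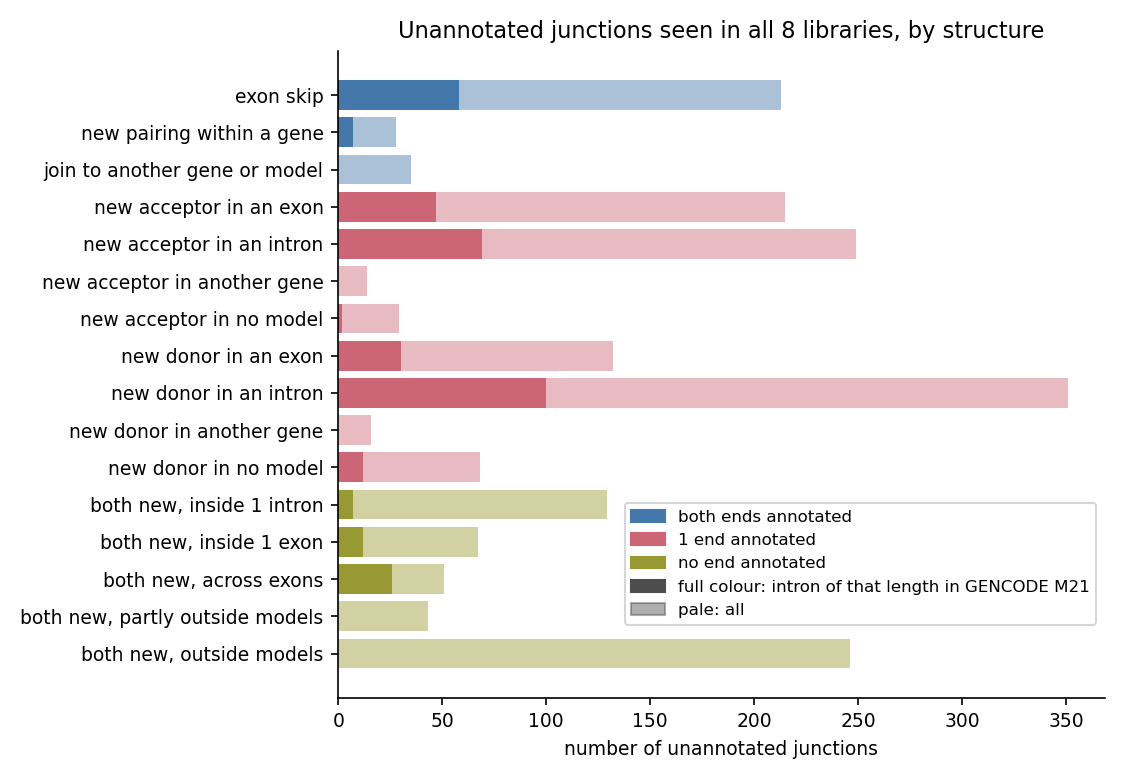
Number of unannotated junctions (horizontal axis) in each structural class (vertical axis), with the end class in colour. The full-coloured part is the number for which the same gene in GENCODE M21 has an intron of that length, sharing an end with the annotated intron where 1 or both ends were annotated. New donors and acceptors in introns (351 and 249), junctions outside the models (246), new acceptors in exons (215) and exon skips (213) are the 5 most frequent classes.

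Of the 276 junctions with both ends annotated, 213 joined exons of 1 gene and left out what lay between them as whole exons. A single exon was left out by 192 of these, 2 exons by 16 and more by 5. The single skipped exons had a median length of 114 bases (quartiles 81 and 151), and 104 of the 192 (54.2%) were a multiple of 3 bases long. Among 59579 internal exons of the models with both of their junctions in all 8 libraries, 23008 (38.6%) were. The skipped exon was found in a GENCODE M21 transcript for 184 of the 192. Of the 155 of these exons that lie wholly in coding sequence, 89 (57.4%) were a multiple of 3, and of the 29 others 10 were. These shares are descriptions with no test.

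The competing annotated junction is the one with the most reads at a shared end. Exon skips had a median of 4.77 reads per 100 reads of that junction, and 106 of 209 with such a junction had fewer than 5. The skip with the most reads was in Itih4 (chr14:31709957-31711042, with all coordinates in the build mm9), which encodes a heavy chain of the inter-alpha-trypsin inhibitor family that hepatocytes secrete. It left out a coding exon of 48 bases and had 147, 221, 213, 341, 250, 230, 186 and 277 reads from CT23 to CT65. Its share against the annotated junction lay between 3.79% in CT23 (95% interval 3.21 to 4.44%) and 5.97% in CT47 (5.27 to 6.73%), with a mean of 4.97 ± 0.71% (SD over 8 libraries).

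Cyp2d10, a cytochrome P450 of drug metabolism, skipped an exon of 177 bases with 99, 95, 271, 134, 154, 137, 127 and 130 reads in time order. This was a share of 22.4 ± 2.8% (SD over 8 libraries), lowest at 17.4% in CT35 and highest at 25.4% in CT65. Apoc3, an apolipoprotein that slows the clearance of triglyceride-rich particles, skipped an exon of 68 bases, which is no multiple of 3. It had 150, 51, 149, 91, 106, 70, 78 and 134 reads, and its share was highest in CT23, at 5.47% (4.65 to 6.38%), and lowest in CT35, at 1.93% (1.64 to 2.26%). All 3 skips of Itih4, Cyp2d10 and Apoc3 have an intron of the same length in GENCODE M21. Their lowest and highest libraries are the extremes of 8 and no test of a change over time. The 24-h component of their reads relative to the annotated junction did not pass (adjusted p of 0.967, 0.927 and 0.467 by edgeR).

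In 31 of the 213 skips the unannotated junction had more reads than the annotated one. Csnk1g3, which encodes a casein kinase 1 isoform, skipped a micro-exon of 24 bases with 68, 67, 89, 78, 61, 56, 70 and 126 reads, against 8, 19, 14, 12, 13, 13, 19 and 28 reads of the annotated junction. The skip therefore held 83.1 ± 4.1% of the reads (SD over 8 libraries), and it led in every library. Slco1b2, the hepatic uptake transporter of organic anions, skipped an exon of 84 bases with 24, 97, 51, 10, 13, 37, 33 and 14 reads, against 2, 3, 21, 3, 6, 8, 14 and 2. A second acceptor of Slco1b2 that differs by a few bases had 227 reads of the same skip. Gm4951 skipped an exon of 109 bases with 477 reads against 17, and Ablim3 skipped 2 exons with 172 reads against 9. Other skips with more reads than the annotated junction were in R3hdm1 (102 bases, 150 against 79 reads over all libraries) and in Ptprk, a receptor tyrosine phosphatase (36 bases, 148 against 17 reads). These were taken from the skips with the most reads after their values had been seen. Of the 26 single-exon skips that led, 19 left out a multiple of 3 bases.

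Mia2, which encodes a protein of the endoplasmic reticulum that aids secretion, skipped a coding exon of 72 bases. The skip had 54, 56, 102, 67, 79, 38, 58 and 54 reads in time order, against 66, 128, 397, 92, 115, 136, 186 and 113 reads of the annotated junction. Its share was 45, 30.4, 20.4, 42.1, 40.7, 21.8, 23.8 and 32.3% in the 8 libraries. The share was above 40% in CT23, CT41 and CT47 and under 24% in CT35, CT53 and CT59. A curve of a 24-h cosine and sine was fitted to the ratio of skip reads to annotated junction reads, not to the share. It had a peak-to-trough difference of 1.58 ± 0.32 (log2, SE), with a peak at CT21.1. Its adjusted p of 0.149 by edgeR's quasi-likelihood test did not pass 0.05, and over 14 settings it ranged between 0.0437 and 0.460.

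**Figure D2:**
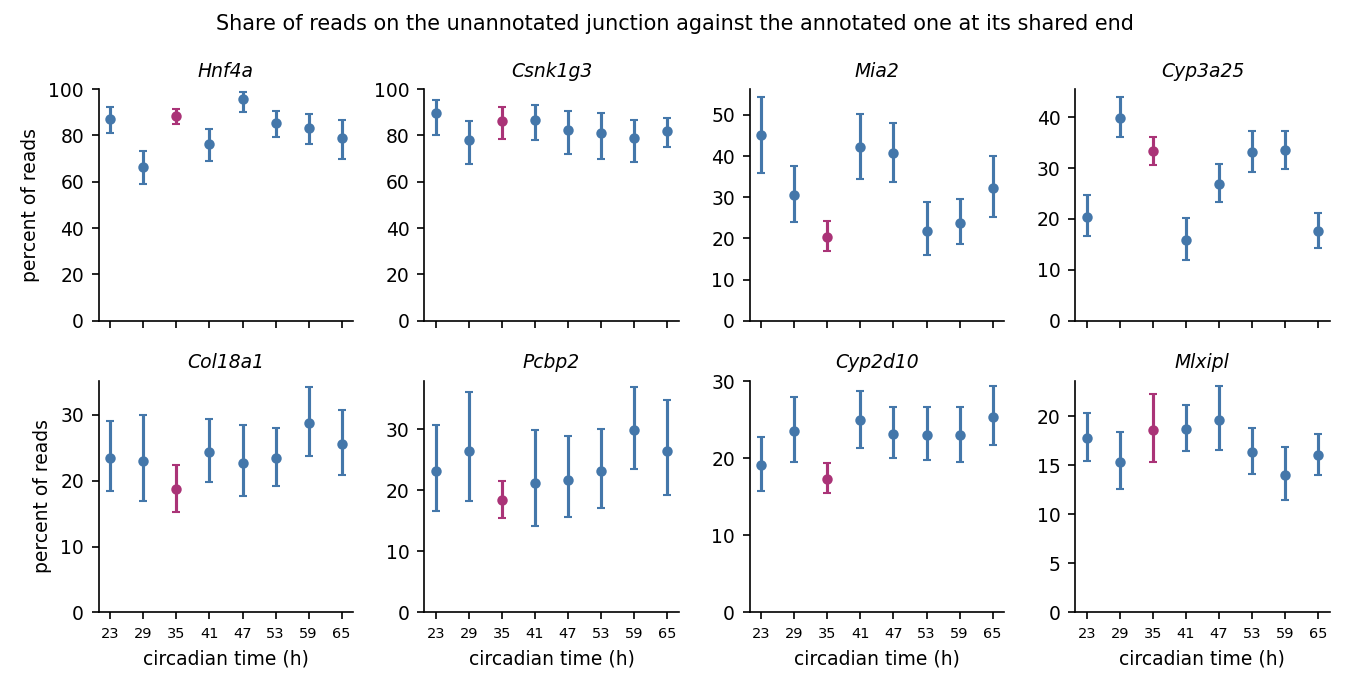
Percent of reads on the unannotated junction among its own reads and those of the annotated junction at the shared end (vertical axis), against circadian time in hours (horizontal axis), for 8 genes. Points are single libraries with 95% exact intervals for counting error, and CT35 is in purple. The unannotated junction held most reads in Hnf4a and Csnk1g3 in every library. Its share in Mia2 and Cyp3a25 differed between single libraries, but their 24-h component did not pass (adjusted p of 0.149 and 0.0850 by edgeR).

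The 1074 junctions with 1 annotated end paired it with a new acceptor in 507 cases and with a new donor in 567. New acceptors lay in an annotated exon in 215, in an intron in 249, in another gene in 14 and outside all models in 29. New donors lay in an exon in 132, in an intron in 351, in another gene in 16 and outside all models in 68. An annotated junction with reads at the shared end was found for 1041, and the new junction had a median of 6.68 reads per 100 of its reads. It had more reads than the annotated one in 138 (13.3%).

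Of these 1041 junctions, 310 (29.8%) moved the site by 60 bases or fewer. The distance was a multiple of 3 in 168 (54.2%), left a remainder of 1 in 71 and of 2 in 71. A single distance, 3 bases, accounted for 72, of which 66 were acceptors and 6 were donors. Without it, 96 of 238 (40.3%) were multiples of 3. Of the 66 acceptors, 48 lay 3 bases into the exon and 18 lay 3 bases before it. Shifts of 4 bases were split between acceptors (13) and donors (11). The 66 acceptors with a 3-base shift had a median of 15.9 reads per 100 of the annotated junction (quartiles 6.80 and 41.1) and 12 to 1321 reads in all.

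**Figure D3:**
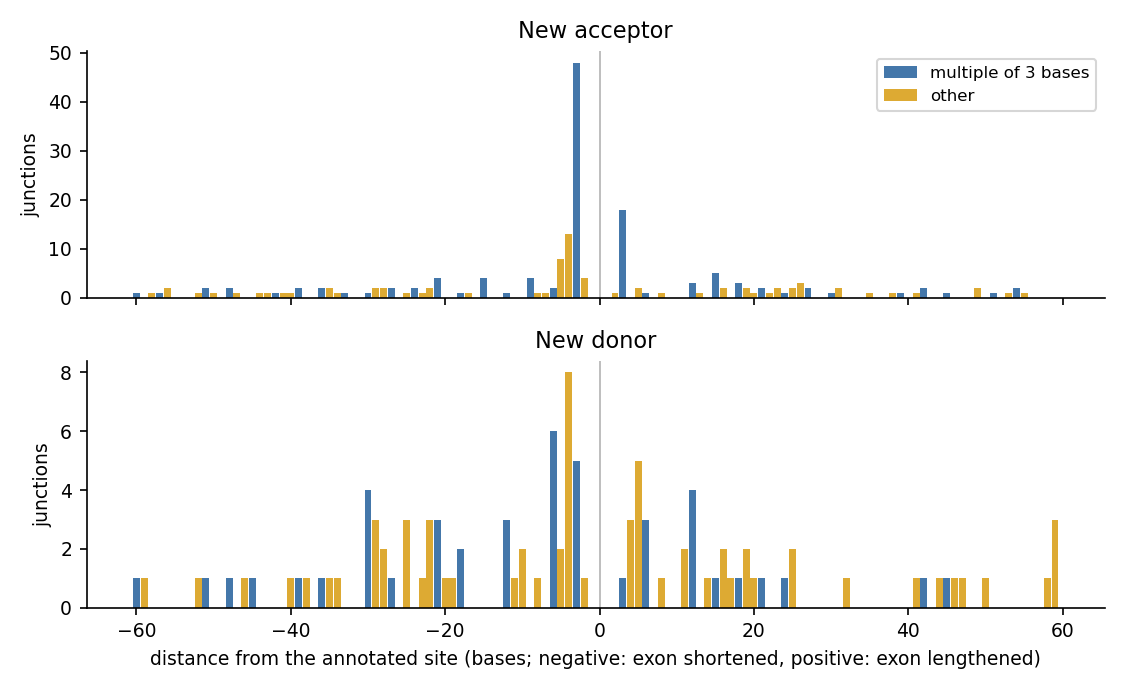
Number of junctions (vertical axis) by the distance of the new site from the annotated one in bases (horizontal axis), for new acceptors (top) and new donors (bottom). Negative distances shorten the exon, and blue bars are multiples of 3. The acceptors peak at -3 with 48 junctions and have a second peak at +3 with 18, while the most frequent donor distance, -4, holds 8.

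Letters of the new sites inside exons could be read from GENCODE M21 transcripts for 171 acceptors and 92 donors. The new intron ended with AG in 168 of the 171, where AG is 7.82% of all neighbouring letter pairs in those transcripts. It began with GT in 83 of the 92 donors and with GC in 8, while GT is 4.84% and GC 6.46% of all pairs. The 8 donors with GC were the same 8 whose junction the authors had drawn in the lighter of the 2 green colours in every library, and 82 of the 83 drawn in the darker green began with GT. The aligner had thus sorted these junctions along the same letters and had rated them as of high quality beforehand. The shares of AG, GT and GC are therefore a description and no independent check of the sites. Lighter green was used at least once for 118 of the 1886 (6.26%). Of the 47 exonic acceptors moved by 3 bases with letters read, 22 left out CAG, 13 AAG, 6 TAG, 5 GAG and 1 CTG.

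Mlxipl, which encodes ChREBP, the carbohydrate-sensing transcription factor of liver, used the acceptor after the CAG printed above in 177, 94, 94, 209, 119, 165, 95 and 202 reads in time order (chr5:135609047-135609124). Its share against the annotated acceptor was 17.1 ± 1.9% (SD over 8 libraries) and lay between 13.99% in CT59 and 19.7% in CT47. Col18a1, the collagen whose C-terminal fragment is endostatin, had 62, 40, 90, 80, 55, 89, 87 and 82 reads and a share of 23.8 ± 2.8%, from 18.7% in CT35 (95% interval 15.3 to 22.4%) to 28.8% in CT59 (23.8 to 34.3%). Pcbp2, an RNA-binding protein of C-rich sequences, had 34, 27, 122, 24, 35, 41, 57 and 35 reads and a share of 23.8 ± 3.6%, from 18.4% in CT35 (15.5 to 21.6%) to 29.8% in CT59 (23.5 to 36.9%). In Col18a1 and Pcbp2 the intervals of the lowest and the highest library did not overlap. These libraries were picked as the extremes of 8, and the intervals cover counting error only, so this is no test of a change over time. The 24-h curve was fitted to the ratio of new to annotated junction reads. In none of the 3 genes did it pass the test (adjusted p of 0.850, 0.952 and 0.967 by edgeR). Rarres2, which encodes chemerin, held the 3-base shift with the most reads, an acceptor before the exon with 1321 reads against 2169.

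Hnf4a encodes a nuclear receptor that maintains hepatocyte identity, and its isoforms with and without a short insertion near the C-terminus are known. The new donor, 30 bases inside the exon (chr2:163394746-163395684), had 137, 115, 371, 116, 108, 147, 120 and 79 reads in time order, and the annotated donor had 20, 58, 48, 36, 5, 25, 24 and 21. The junction that drops the 30 bases therefore led in every library, with 66.5% of the reads in CT29 (95% interval 58.9 to 73.5%), 95.6% in CT47 (90.0 to 98.5%) and a mean of 82.7 ± 8.8% (SD over 8 libraries). The intervals of CT29 and CT47 do not overlap, but these are the lowest and the highest of the 8 libraries, so this is no test of a change over time. The spread between animals was not measured. No intron of the same length was found for Hnf4a in GENCODE M21.

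Shifts in very abundant liver messengers had many reads but small shares. In Apoa2, an apolipoprotein of high-density lipoprotein, an acceptor 65 bases into the exon had 188, 139, 300, 162, 289, 210, 155 and 137 reads, a share of 0.702 ± 0.130% (SD over 8 libraries). In Mup3, a major urinary protein that carries pheromones, a donor 4 bases inside the exon had 220, 152, 558, 157, 182, 127, 145 and 203 reads, a share of 1.60 ± 0.22%. In Alb, serum albumin, a donor 21 bases inside the exon had 12 to 100 reads per library, with the highest count in CT35, and a share of 0.0529 ± 0.0130%. In Hpd, an enzyme of tyrosine breakdown, an acceptor 36 bases into the exon had 20 to 36 reads per library and a share of 1.01 ± 0.25%. The distances of Alb and Hpd are multiples of 3, and those of Apoa2 and Mup3 are not.

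New ends farther from the annotated site had more reads than the annotated junction in several genes. Gckr, Gm8883 and an unnamed model are given for the highest ratios of reads to the annotated junction among the junctions with at least 20 reads in every library. Gckr, the regulatory protein that holds glucokinase in the nucleus, used a donor 108 bases downstream of the annotated one with 43, 93, 71, 32, 100, 38, 43 and 33 reads, while the annotated donor had 2 reads in all libraries together. A junction of GENCODE M21 has the same length and shared end. Gm8883 had 648 reads at a new acceptor against 21. A new donor that shares its end with an unnamed model at chr16:23201288-23203563 had 549 reads against 68. The same criterion took a Serpina1b and a Mup6 junction, described with their gene families. Sema4g, a semaphorin, was among the 6 junctions with the most reads in its end class and did not lead, with 1468 reads against 12209. It had 205, 201, 174, 162, 143, 211, 169 and 203 reads at a new donor inside an intron, a share of 10.9 ± 2.1% (SD over 8 libraries) with the lowest value of 8.50% in CT41 and the highest of 15.03% in CT35.

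Of the 536 junctions with no annotated end, 246 lay outside all models, 43 partly outside, 129 inside 1 intron, 67 inside 1 exon and 51 across exons of a model. Those inside 1 exon had a median length of 120 bases, and 41 of the 67 (61.2%) were a multiple of 3. The first of these by reads were in Kynu, an enzyme of tryptophan breakdown (408 reads, 732 bases), and Hp, haptoglobin (215 reads, 80 bases). Of the 215 Hp reads 105 were from CT35, the deepest library, and 40 from CT47, which is 7.12 and 6.42 reads per 1000000 junction reads. The other 6 libraries had 0.977 to 2.95.

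Neighbouring junctions that enclose a short stretch can outline an exon. Every pair with up to 1000 bases between its junctions was counted, whatever lay between them and without regard to strand. A pair is therefore not always an exon. There were 704 such pairs among the 1886 unannotated junctions, and 111 matched an intron, exon and intron of GENCODE M21 in all 3 lengths. These pairs name 61 genes or groups of genes that the match cannot separate. In 15 of them at least 3 junctions had no annotated end. No coordinates were carried over between the builds.

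The structure with the most reads was at chr5:90990344-91026509, where 12 junctions with 3548 reads outlined 10 exons of 5830473C10Rik. One of its junctions, chr5:90995647-90998475, was among the 6 with the most reads in this end class and had 108, 219, 260, 141, 131, 219, 138 and 105 reads in time order. Summed over its 12 junctions, the locus had 66.6 ± 17.2 reads per 1000000 junction reads (SD over 8 libraries). On chromosome 7, a span that the models give to Zfp553, a zinc finger gene, held the exons of other genes. There 6 junctions matched Fbrs (1903 reads). A further 15 (2695 reads) outlined 13 exons of Srcap, a chromatin remodeller that exchanges histone variants, although 10 of these exons matched the entry Gm42715 as well. Srcap had 337, 355, 419, 296, 287, 366, 343 and 292 reads in time order. Fbrs had 300, 249, 147, 192, 166, 301, 222 and 326 reads, which makes CT35 the lowest of the 8 although it is the deepest library. Gm4756 on chromosome 12 had 7 junctions with 1907 reads, and Gm27216 on chromosome 9 had 5 with 1338.

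Inside the span of Mgam, a maltase-glucoamylase, 23 junctions with no annotated end followed each other over chr6:40638140-40678625. Of the 22 stretches between neighbours 19 were at most 1000 bases long. These had 50 to 830 bases, with a median of 113, and 9 of the 19 were multiples of 3. The other 3 had 1774, 3194 and 1241 bases. The 23 junctions had 30 to 485 reads each, with a median of 65. Their sum was 221, 332, 702, 183, 198, 254, 351 and 205 reads in time order, or 44.4 ± 12.7 reads per 1000000 junction reads (SD over 8 libraries). None was matched to a GENCODE M21 structure. With 2 further junctions of 1 annotated end, Mgam was the gene with the most unannotated junctions.

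**Figure D4:**
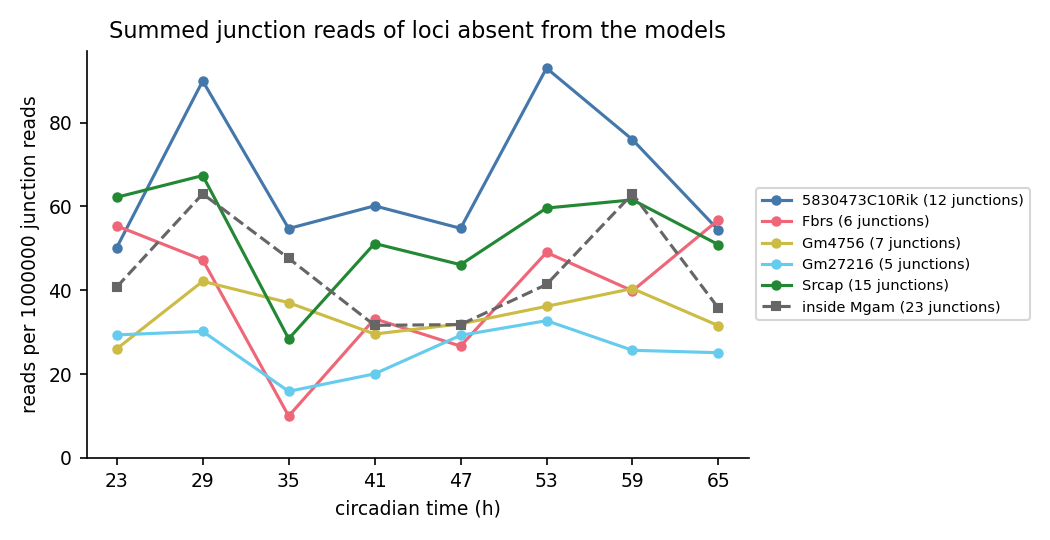
Reads per 1000000 junction reads (vertical axis) summed over the unannotated junctions of 6 loci, against circadian time in hours (horizontal axis). Each point is 1 library. 5830473C10Rik is highest in CT29 and CT53, and Fbrs is lowest in CT35.

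The junction with the most reads and no annotated end, chr14:41918550-41918635, spans 86 bases outside all models and had 139, 184, 568, 169, 149, 196, 267 and 174 reads. No gene name could be given to it. The next were chr4:61618209-61618372 (1485 reads) and chr4:61535757-61535920 (1336 reads), both of 164 bases and both near the Mup genes. Their reads moved apart between libraries: the first had 611 reads in CT35 and 81 to 181 in the others, while the second had 42 in CT35 and 89 to 272 in the others. The junction chr4:61610277-61618162, which ends just before the first, also had its highest count, 415, in CT35. The first and the junction that follows it matched Mup8 of GENCODE M21 in the lengths of both introns and the exon between.

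The major urinary protein (Mup) and alpha-1-antitrypsin (Serpina1) families are tandem arrays of near-identical genes whose products liver secretes in large amounts. Reads shared by such copies cannot be told apart here. Mup genes hosted 39 of the 1886 junctions with 8191 reads. Serpina genes, counted with those outside the Serpina1 array, hosted 67 with 17976 reads, 9.80% of all reads on these junctions. All 33 junctions that joined annotated ends of 2 named genes joined genes with the same name stem on the same strand, and they held 5803 reads. The others of the 276 were 28 new pairings within a gene and 2 joins to an unnamed model.

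The join with the most reads ran between Serpina1c and Serpina1e (chr12:105134366-105187256) and had 146, 73, 731, 400, 168, 384, 112 and 90 reads in time order. A join of Serpina1b and Serpina1e (chr12:104967592-105187256), which shares its right end, had 134, 60, 64, 130, 127, 122, 108 and 156. Per 1000000 junction reads, the first was highest in CT41 (69.1) and CT53 (62.5), before CT35 (49.6), and lowest in CT29 (13.8). The second was highest in CT65 (27.2) and lowest in CT35 (4.34), where its share against the annotated junction was also lowest (0.0650%, 95% interval 0.0501 to 0.0830%). A Serpina1b junction with a new acceptor had 372, 299, 90, 315, 348, 313, 268 and 343 reads, lowest in CT35, and 19 reads of the annotated junction stood against its 2348. The new acceptor lies 89655 bases from that of the annotated junction. A junction inside an intron of Serpina1a and Serpina1b models, chr12:105057210-105058094, had 936 reads in all and 73 to 174 per library. Paired with the next junction, it matched Gm8893 of GENCODE M21 in the lengths of both introns and the exon between. Paired with the junction before it, it matched Gm8893, Serpina1a and Serpina1c, which the lengths cannot separate. A Mup6 junction with a new acceptor outside the models had 400, 111, 246, 180, 286, 191, 255 and 315 reads, against 25 in all of the annotated junction. Here the new acceptor lies 82358 bases from the annotated one. Serpina4-ps1 had 347, 38, 284, 262, 130, 52, 152 and 181 reads at a new acceptor, lowest in CT29 and CT53, which are the same circadian phase on successive days. Its 24-h component did not pass edgeR over all junctions (adjusted p 0.175, and 0.0212 to 0.446 over 15 settings).

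A comparison with the later annotation was made by gene name and length. Of 75309 annotated junctions whose gene was found in GENCODE M21, 99.8% had an intron of the same length there. Among unannotated junctions the gene was found for 1542, and 397 (25.7%) had an intron of the same length. With a shared end also required, the match held for 65 of 273 (23.8%) with both ends annotated and 260 of 1030 (25.2%) with 1. Junctions with under 50 reads matched in 153 of 738 (20.7%), those with 50 to under 200 in 139 of 455 (30.5%), and those with 200 or more in 33 of 110 (30.0%).

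The share of genes with an unannotated junction was larger where the gene had more reads. Of 5390 genes whose annotated junctions had a median of 8 to under 100 reads over the 8 libraries, 2.84% had an unannotated junction with 1 or both ends annotated. The share was 11.04% of 3541 genes from 100 to under 1000 reads, 33.6% of 458 from 1000 to under 10000, and 72.6% of 62 at 10000 or more. Of 42 genes for secreted liver proteins 36 had at least 1, with 167 junctions, or 38.7 per 100 annotated ones. Of 27 genes of xenobiotic metabolism 20 did, with 58 junctions or 23.6 per 100. All junctions with a gene name together had 2.05 per 100 (1543 unannotated and 75345 annotated). The annotated junctions of the secreted list had a median of 11447 reads and those of the xenobiotic list 3589, against 102 over all. The rate over all is therefore no comparison at similar reads. Per 100 annotated junctions, genes with a median of 10000 reads or more had 30.96 unannotated ones. Those from 1000 to under 10000 reads had 9.005. Both rates leave out junctions with no annotated end, of which the secreted list holds 25 and the xenobiotic list 3. Whether either list exceeds genes of similar reads was not tested.

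Splicing factors are known to regulate their own messengers through alternative exons. Of 32 genes in the splicing factor list, all with annotated junctions in every library, 7 had 9 unannotated junctions, each with 1 annotated end, or 3.07 per 100 annotated ones, against 2.05 over all with a gene name. Snrnp70, a protein of the U1 particle that binds donors, had the most reads. Its new donor inside an intron had 54, 19, 39, 45, 39, 33, 23 and 73 reads, a share of 22.9 ± 7.2% (SD over 8 libraries), lowest at 9.31% in CT29 (95% interval 5.70 to 14.2%) and highest at 32.6% in CT65 (26.5 to 39.2%). These libraries are the extremes of 8, so this is no test of a change over time. The 24-h component of the new donor's reads relative to the annotated junction did not pass (adjusted p 0.682 by edgeR). A new acceptor in the same intron had 25 reads in all, so that both sides of an exon inside that intron were read. Hnrnpa2b1 had 67 reads, Hnrnpl 50 and Hnrnpd 45 at new sites in introns, and Sf1, the branch point binding protein, had 36 at an acceptor 21 bases into an exon. Except in Sf1, an intron of the same length with a shared end is in GENCODE M21. None of 25 clock genes had an unannotated junction in all libraries, while 20 of them had annotated ones, 142 in all with a median of 130 reads. Genes whose annotated junctions had a median of 100 to under 1000 reads had 1.70 unannotated junctions with 1 or both ends annotated per 100 annotated ones.

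A 24-h component was tested for with edgeR's quasi-likelihood test on a cosine and a sine over all junctions with at least 10 reads in at least 4 libraries. Of 43224 junctions 159 (0.368%) passed an adjusted p of 0.05. None of the 505 unannotated junctions tested did, and 81 of the 505 (16.04%) were under an unadjusted p of 0.05, against 4151 of 43224 (9.60%) overall. Of the 505, limma called 0, with 0.49% of all junctions called, and DESeq2's likelihood ratio test called 6, with 0.99% of all. With no filter beyond a read in every library, 9 of 1886 passed in edgeR, against 0.384% of all. The clock genes held 34 of the called annotated junctions, of 100 tested. The smallest adjusted p were 0.0636 for chr16:42891767-42897058 and 0.0703 for chr6:121087564-121091594, neither with a gene name, and 0.105 for the Slco1b2 skip. They ranged over the settings from 0.0329 to 0.295, from 0.0407 to 0.223 and from 0.0124 to 0.539. The first had 12, 5, 20, 25, 17, 6, 15 and 30 reads, and the Slco1b2 skip had 4.43, 18.4, 3.46, 1.73, 2.09, 6.03, 5.92 and 2.44 reads per 1000000 junction reads from CT23 to CT65. CT29 was the highest, followed by CT53 and CT59, and CT35 was below CT23.

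The same curve was fitted to usage, the reads of a junction relative to a more abundant annotated junction at a shared end that had at least 10 reads in every library. Junctions that outnumber the annotated one, such as those of Hnf4a and Csnk1g3, were therefore not in this test. None of 670 junctions (0%), of which 250 were unannotated, passed an adjusted p of 0.05 with edgeR. Unadjusted p were under 0.05 in 24 of the 250 (9.60%) and in 58 of the 670 (8.66%), and limma on the log2 ratio also called none. With no filter beyond a read in every library, 3 of 952 unannotated junctions passed in edgeR, against 0.263% of all 1904, and with 20 reads in every library 2 of 50 did, against 1.88% of all 160. The smallest adjusted p, 0.0850, belonged to Cyp3a25, a cytochrome P450 of the drug-metabolising 3A family, with a new donor inside an intron (chr5:146789279-146789723). It had 85, 244, 392, 51, 155, 184, 218 and 90 reads, and shares of 20.5, 39.9, 33.3, 15.8, 27.0, 33.2, 33.5 and 17.6%. The share was 33.2 to 39.9% in CT29, CT35, CT53 and CT59, 27.0% in CT47 and 15.8 to 20.5% in CT23, CT41 and CT65. The fitted peak-to-trough difference of its usage, not of its share, was 1.66 ± 0.30 (log2, SE) with a peak at CT6.62. Its adjusted p ranged between 0.0358 and 0.405 over 14 settings. Acaa1b, a peroxisomal thiolase, had the third smallest after Mia2, with an adjusted p of 0.239.

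CT35 stood apart from the other libraries for these junctions. The rate of each junction, in reads per 1000000 junction reads, was divided by its median in the other 7 libraries. In CT35 the median log2 ratio was -0.41 for the 1886 unannotated junctions (quartiles -1.29 and 0.24) and 0.10 for the 75686 annotated ones (quartiles -0.44 and 0.58). The ratio was -0.44 with both ends annotated, -0.37 with 1 and -0.46 with none. In the other 7 libraries the medians for unannotated junctions lay between -0.09 and 0.18, and those for annotated junctions between -0.14 and 0.09. In CT35, 232 unannotated junctions (12.3%) were under -2, against 1316 annotated ones (1.74%). The rule asks for reads in every library, so a junction could drop to 1 read in CT35 and no lower. Among junctions with at least 20 reads in every library the CT35 medians were -0.60 for 104 unannotated and -0.06 for 16489 annotated junctions. A fixed number of reads is a lower rate in CT35, the deepest library, than in the other 7. Both the rule and the floor of 20 reads therefore select less strictly in CT35, and more so among junctions with few reads. How far this selection moves the medians was not tested. The greater depth of CT35 moves with this difference, and its part in it was not tested.

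**Figure D5:**
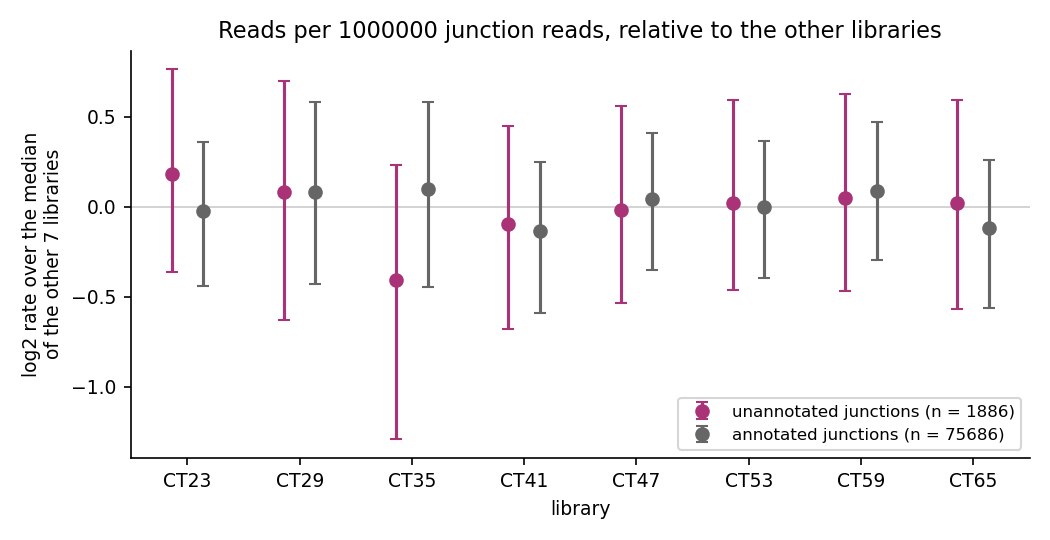
Median log2 of the rate in each library over the median rate in the other 7 (vertical axis), by library (horizontal axis), for unannotated and annotated junctions seen in all 8 libraries. Bars span the quartiles. The unannotated junctions are at -0.41 in CT35 and between -0.09 and 0.18 in the other libraries.

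The junctions with the most reads just inside the rule, with a lowest count of 1, lay inside introns of Mup13, Mup14, Mup15, Mup16 and Mup18 models (178 reads, 1 in CT35), Gm10069 and Pzp (146 reads, 1 in CT35) and Cdk8 (145 reads, 1 in CT47). Just outside it, with reads in 7 libraries, were a Mup17 junction (170 reads), chr6:121724230-121724821 (165 reads) and a Mup20 junction (155 reads), all with 0 in CT35.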

How the data were processed

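Per the labels' protocols, poly(A) RNA of 3 pooled livers was sequenced in 1 paired-end library per time. The submitters' processing notes name the build mm9. Per the file headers, the deposited junctions are those that RUM, a spliced aligner, rated as of high quality. Their values are raw counts of reads per junction, not normalized by the authors. The introns and exons came from the deposited transcript tables, whose values were used for marker genes only. Of aligner settings, read length and strand nothing is stated in the labels. From the 115699 models, 79709 were named through RefSeq or Vega identifiers and 27284 through a shared intron. The members and gene lists were chosen with earlier results of these data known. Junctions named are the 6 with the most reads per end class, those with the highest ratio to an annotated junction, those of clock and splicing factor genes, those next to the threshold, and others stated as chosen after their values were seen. Counts were tested with edgeR 4.0.16 (TMM, robust quasi-likelihood, 5 residual degrees of freedom) in R 4.3.3, and usage with the log of competing reads plus 0.5 as an offset, with Benjamini-Hochberg adjustment. A p-value here reflects how far single pools scatter around the curve, not differences between animals. limma 3.58.1 and DESeq2 1.42.0 served as alternatives, and the tests were tried on simulated data. GENCODE M21 gave lengths and letters only.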

Additional observations from a re-analysis of the deposited data

How the results depend on the processing

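At a median of 45 reads over the 8 libraries the share of a single junction is known only coarsely, and with 1 pool per time no value has a replicate check. With 2 or 5 reads asked for in every library, the unannotated junctions numbered 1030 and 451, of which 568 and 224 had 1 annotated end, and with 1 library left out in turn they numbered 1994 to 2090. Counted over junctions seen in all 8 libraries only, the mean share of reads on unannotated junctions was 0.354%, against 0.694% over all. Junctions with a 24-h component in their counts numbered 298 with no filter beyond a read in every library (9 of them unannotated), 428 with DESeq2's likelihood ratio test (6 unannotated) and 1 with 20 reads in every library. They numbered 27 without CT23, 49 without CT59, 62 without CT41, 78 without CT53, 99 without CT47 and 108 to 114 without one of the others, against 159, and 0 or 1 of them were unannotated, the 1 being Cyp4a14 without CT41. For usage, 3 junctions passed with 20 reads in every library (2 unannotated, Cyp3a25 and Mia2) and 5 with no filter (3 unannotated, Kng2, Srrm2 and Cyp3a25). Leaving out 1 library gave 0 to 2 for usage, and 0 or 1 unannotated, which was Cyp3a25 without CT53. These genes were named after their values had been seen. The cause was not tested. No other alternative moved a count by over 1.5 times. No paired analysis was possible because each time has a single library, so the shared replicate number pairs nothing.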
